A study of Mus musculus with 931 samples.

Results

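The cells described here are 57 single β cells of the mouse pancreas at E17.5, late in gestation and the earliest stage of the series. They were taken by label from 917 single cells: every E17.5 cell labelled as positive for the Ins1-RFP reporter with no second hormone named, in 3 labelled batches of 5, 31 and 21 cells. The series follows insulin-producing β cells and glucagon-producing α cells between E17.5 and P60. The cells came from Ins1-RFP mice on a mixed C57BL/6 and C3H background, in which red fluorescence reports activity of the Ins1 locus, so a cell without that reporter could not be collected. Batches 1 and 2 were picked by hand and batch 3 was sorted by FACS. The cells are compared with 3 sets: 481 unselected β cells of 6 later stages (P0, P3, P9, P15, P18 and P60; 22 batches) from the same reporter line, the 71 cells of P0 among them (3 batches), and 65 α cells at E17.5 (4 batches) from Gcg-Cre; Rosa-RFP mice on a mixed C57BL/6, CBA/J and C3H background. The labels name a batch for each cell but no animal, so every p-value reflects how far these batches differ, a spread that can be technical. A further 4 β cells at E17.5 carry a second hormone in their labels and are kept apart.

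β cells arise in the fetal pancreas from endocrine progenitors that pass through a stage of Neurog3 expression, and begin to make insulin well before they respond to glucose as adult cells do. In the mouse, insulin is encoded by a pair of genes, Ins2, the ancestral gene, and Ins1, a retrotransposed copy; both proinsulins are folded in the endoplasmic reticulum, cut by the convertases Pcsk1, Pcsk2 and the carboxypeptidase Cpe, and stored in granules with the granins and islet amyloid polypeptide (Iapp). Around birth β cells lose fetal products such as Dlk1, a Notch-like membrane protein of an imprinted locus, and over the following weeks gain Ucn3, a peptide hormone, and other products of mature cells.

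The promoters of 4 genes are printed because their genes carry the findings: Ins1, whose reporter chose the cells, Iapp, the next hormone transcript in abundance, and Dlk1 and Rbp4, which stood higher at E17.5 than in later β cells. The sequences are from RefSeq, build GRCm38.p6, and cover 250 bases upstream of each annotated start, 5′ to 3′ on the gene's strand; of 5 genes looked up, 4 were matched. Capitals mark TAAT, the core bound by homeodomain factors such as Pdx1 and Nkx6-1, and CANNTG, the E-box bound by factors such as Neurod1, on either strand.
Ins1 (chr19:52264047-52264296, plus strand): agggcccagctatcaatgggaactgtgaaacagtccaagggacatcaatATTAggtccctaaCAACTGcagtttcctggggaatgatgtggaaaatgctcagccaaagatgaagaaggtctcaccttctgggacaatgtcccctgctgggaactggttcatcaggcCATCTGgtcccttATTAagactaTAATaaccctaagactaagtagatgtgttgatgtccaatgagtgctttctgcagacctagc
Iapp (chr6:142298175-142298424, plus strand): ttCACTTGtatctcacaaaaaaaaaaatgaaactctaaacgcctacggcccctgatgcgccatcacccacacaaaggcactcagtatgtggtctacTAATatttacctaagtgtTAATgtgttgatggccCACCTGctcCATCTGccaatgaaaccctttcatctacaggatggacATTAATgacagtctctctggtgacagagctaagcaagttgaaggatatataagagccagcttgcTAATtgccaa
Dlk1 (chr12:109452573-109452822, plus strand): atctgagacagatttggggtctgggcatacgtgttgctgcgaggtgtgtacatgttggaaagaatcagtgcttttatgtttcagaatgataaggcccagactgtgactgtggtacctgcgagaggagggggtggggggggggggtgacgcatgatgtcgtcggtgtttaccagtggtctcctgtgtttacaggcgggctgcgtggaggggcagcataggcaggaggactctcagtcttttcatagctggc
Rbp4 (chr19:38125322-38125571, minus strand): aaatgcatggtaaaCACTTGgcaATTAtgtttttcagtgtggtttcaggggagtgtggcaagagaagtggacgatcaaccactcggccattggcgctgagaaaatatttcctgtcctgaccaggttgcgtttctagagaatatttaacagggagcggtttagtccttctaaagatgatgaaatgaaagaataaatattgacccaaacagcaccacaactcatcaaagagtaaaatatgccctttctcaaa
TAAT matched 3 times in the Ins1 window, 5 times in Iapp (2 of these matches overlap as ATTAAT), 0 times in Dlk1 and 1 time in Rbp4. CANNTG matched 2 times in Ins1, 3 times in Iapp, 0 times in Dlk1 and 1 time in Rbp4. Of 32851 promoter windows of the same length, 54.9% hold TAAT and 66.2% hold CANNTG. These matches describe letters in a window, not binding.

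Each cell is a Smart-seq2 library of its own, which reads whole transcripts without molecular identifiers, so reads are not independent molecules and every floor given here covers counting error only. The 57 cells held 745016 to 1799597 gene reads (median 1235797) and 7427 to 10238 genes with at least 1 read (median 8582). Levels within the stage are given as CPM, the reads of a gene scaled to a common total of gene reads, and, where genes are compared with each other, as the deposited TPM, transcript levels that allow for gene length. For a gene with 0 reads in all 57 cells, 3 reads over the 70955038 gene reads set a floor of 0.0423 CPM, and in 1 cell of median depth the floor is 2.43 CPM.

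Cells were chosen by the Ins1 reporter and by labels without a second hormone, so hormone levels only check the labels. Both insulin genes were read in every cell, and glucagon (Gcg), the α cell hormone, was at most 2078 CPM in a single cell with a median of 0.670 CPM, against a range of 29374 to 257648 CPM in α cells at E17.5 and 95654 CPM in the E17.5 cell labelled with both insulin and glucagon. Sst, the δ cell hormone somatostatin, was at most 210 CPM, against 15253, 23990 and 79515 CPM in the 3 cells whose labels name it. Ppy, pancreatic polypeptide, had a median of 8.57 CPM with 1 cell at 1192 CPM, and Ghrl, the hormone of ε cells, was read in 8 cells with a highest level of 33.8 CPM. Of the 12 β cell markers, all had reads and 10 were read in all 57 cells. Their summed level was 56557 to 410408 CPM per cell (median 282618).

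Summed markers of other cell types were low beside those of β cells. Most of the β sum came from Ins1, Ins2 and Iapp (medians of 85817, 149662 and 29703 CPM). Cells were chosen by the Ins1 reporter, so this contrast only checks the labels. The summed α cell markers reached 744 to 7534 CPM per cell (median 1901), with Ttr and Tmem27 read in all 57 cells and Slc38a5 in 55; the α cell factors Irx1 and Irx2 were read in 2 cells each. Rbp4 is a member of both the β list and the δ list. Of the other δ markers, Ghsr was at 0. Hhex, a δ cell transcription factor, was read in 3 cells with a highest level of 0.989 CPM. Casr, however, was at 0 in only 6 cells of batch 2 and 2 of batch 3, with medians of 33.4 and 15.9 CPM. Markers of pancreatic polypeptide cells summed to a median of 186 CPM. Among them Fxyd6 had medians of 156 and 164 CPM in batches 2 and 3. Acinar markers summed to at most 301 CPM, with Prss1, Cela2a, Cela3b, Amy2a5 and Try4 at 0. Endothelial markers summed to at most 87.9 CPM with Kdr and Plvap at 0, erythroid markers to at most 13.1 CPM and mesenchymal markers to at most 146 CPM with a median of 0. Duct markers summed to 128 to 1092 CPM, of which the keratin Krt7 alone held a median of 307 CPM in all 57 cells. Immune markers summed to a median of 66.1 CPM, and C1qa, a complement component, held a median of 65.2 CPM of it. Schwann and neuronal markers summed to a median of 154 CPM, mostly from the tubulin Tubb3 (median 110 CPM), with Sox10 and Foxd3 at 0. The duct factor Sox9 was read in 43 cells (median 39.7 CPM). The cells carried the β markers, Ins1 by selection, while Irx1, Irx2, Hhex and the exocrine enzymes were at or near 0. Casr, Fxyd6, Krt7, C1qa and Tubb3 were read in most cells.

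Insulin dominated the transcriptome. Ins2 was read at 352 CPM in the lowest cell, 149662 CPM in the median cell and 257133 CPM in the highest, with batch means of 143217, 144544 and 160849 CPM. Ins1 was read at 8761, 85817 and 138569 CPM in the lowest, median and highest cell, with batch means of 61812, 84472 and 90329 CPM. For both genes the 3 batches lay close together beside the spread among cells. Per length, the median TPM was 332158 for Ins2, 113766 for Ins1 and 45075 for Iapp, and in TPM no row of the table other than Yam1 stood between or above them. Iapp, which is stored with insulin, ranged over 8761 to 65368 CPM (median 29703). Yam1 had 22745 to 124223 CPM (median 67861). It is the noncoding gene Gm42418 of GENCODE vM21 at chr17:39846958-39848788, within an annotated ribosomal RNA gene on the opposite strand, so its reads cannot be assigned to one of them.

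**Figure D1:**
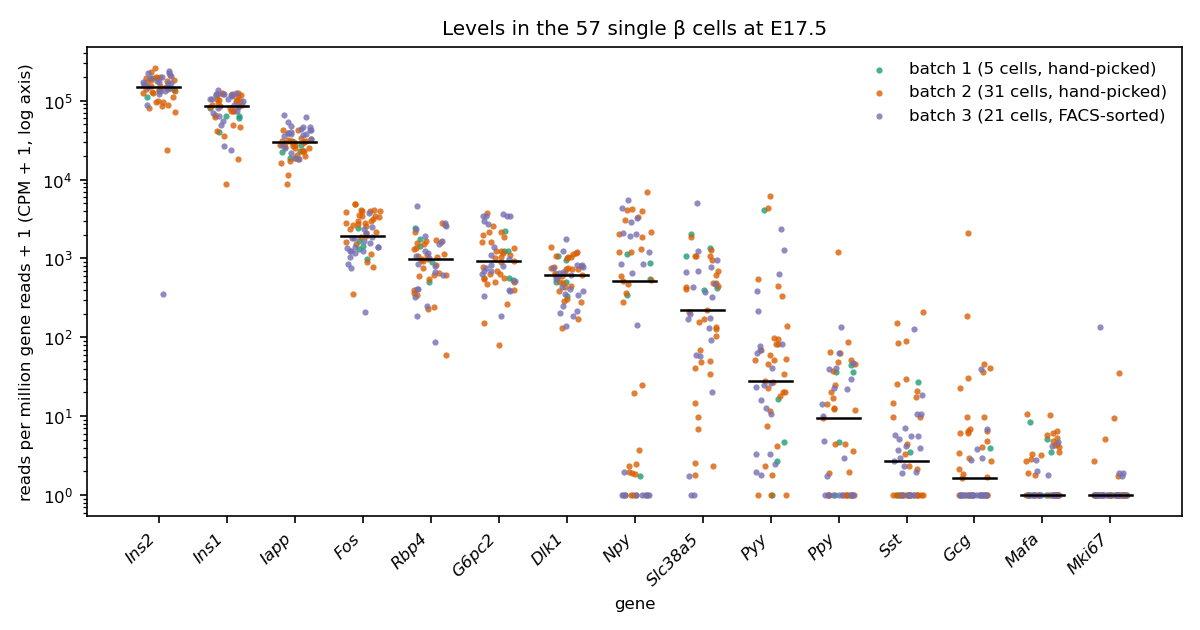
Each point is 1 of the 57 β cells at E17.5, coloured by batch; the horizontal axis gives 15 genes, the vertical axis CPM + 1 on a log scale, and black bars are medians over cells. Ins2, Ins1 and Iapp stand highest with 1 cell far below the rest for Ins2, Npy and Pyy spread over most of the axis, and Gcg, Mafa and Mki67 lie near the bottom apart from single cells.

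Granule cargo formed the next tier. Of 18 genes for granule contents and processing, 14 were read in all 57 cells and 17 in at least 29. The chromogranin Chga had 639, 2636 and 10397 CPM in the lowest, median and highest cell, and the secretogranin Scg2 had 583, 2956 and 6391 CPM. The carboxypeptidase Cpe, which trims insulin after cleavage, stayed between 1950 and 4264 CPM, and the convertase Pcsk2 between 1315 and 3849 CPM. These enzymes varied little among cells, whereas Chga and its relative Chgb (202 to 4580 CPM) varied widely. Vgf, a granule peptide precursor, was the exception of the list with reads in 27 cells and a highest level of 197 CPM.

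Folding genes of the endoplasmic reticulum were abundant: 18 of 21 were read in all cells, and Hspa5, the chaperone BiP, Pdia3, a disulphide isomerase, Hsp90b1 and P4hb stood among the 20 highest genes by mean CPM. Hspa5 had 397, 3461 and 9686 CPM in the lowest, median and highest cell. The other highest genes by mean CPM, after skipping ribosomal, mitochondrial and predicted genes, were Ins2, Ins1, Yam1, Iapp, Nnat, Malat1, Scg2, Chga, Cpe, Fos, Actb, Pcsk2, Cd164, Chgb, Meg3 and H3f3b. Ranked by median TPM instead, 14 of these 20 genes were among the 20 highest. Fos, an immediate early transcription factor, was read in all cells at 209 to 4944 CPM (median 1927).

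Fetal and immature products were plentiful but uneven. Of 25 listed genes, 7 were read in every cell, 16 in at least 29 cells, 8 in 1 to 28 cells, and Lin28b, a fetal RNA-binding protein, in none. Nnat, neuronatin, an imprinted gene whose product aids secretion in β cells, was the fifth gene by mean CPM with 1379, 7939 and 20278 CPM in the lowest, median and highest cell. Rbp4, the retinol carrier, had 58.5, 997 and 4587 CPM, and batch means of 1417, 1062 and 1263 CPM. Dlk1 had 131, 614 and 1748 CPM, and batch means of 671, 691 and 579 CPM. Both were present in all 57 cells, with batch means that differed less than the cells did.

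The peptide genes of the same list ranged widely among cells. Npy, neuropeptide Y, was at 0 in 13 cells and reached 6876 CPM in the highest (median 521). Pyy, peptide YY, had reads in 53 cells but a median of 27.1 CPM, with 6228 CPM in the highest cell. Gip was read in 26 cells (highest 213 CPM) and Gal, galanin, in 16 (highest 216 CPM). Neurog3, the progenitor factor, was read in 1 cell at 45.9 CPM, while Fev, a factor of late progenitors, was read in 49 cells (median 31.1 CPM) and Pax4, another progenitor factor, in 6 (highest 125 CPM). The hormone precursors Nts, Pdyn and Adcyap1 were at 0 in all cells, under the floor of 0.0423 CPM.

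Transcription factors of the islet were nearly all present: 23 of 30 were read in at least 29 cells, and Foxa1 and Scrt1 in none. Pdx1, which activates the insulin genes, had 19.0, 313 and 932 CPM in the lowest, median and highest cell. Neurod1, an E-box factor, had 90.0, 415 and 934 CPM, and Nkx6-1, which maintains β cell identity, had 59.1, 183 and 358 CPM. All 3 were read in every cell. Mafa, a transcription factor that marks mature β cells, was read in 25 cells and never above 9.64 CPM, although bulk RNA of β cells sorted at E17.5 held 35.2 and 83.2 CPM. In single β cells of later stages it was as low, read in 122 of 481 and never above 8.54 CPM, so its level here does not set E17.5 apart.

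Glucose sensing genes were already read in most cells, with 18 of 20 read in at least 29 cells. Slc2a2, the glucose transporter GLUT2, had 54.1, 686 and 1698 CPM in the lowest, median and highest cell. G6pc2, a glucose-6-phosphatase of islets, had 79.5, 933 and 3741 CPM. The sulfonylurea receptor Abcc8 was read in all cells (median 776 CPM), and its channel partner Kcnj11 in 43 (median 16.9 CPM). Ucn3 was read in 48 cells, with a median of 46.3 CPM and a highest level of 411 CPM.

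Lists for division, disallowed genes and antigen presentation were low. Of 44 proliferation genes none was read in all cells and 10 were read in at least 29, and their summed level had a median of 533 CPM per cell. Mki67, a marker of cycling cells, was read in 9 cells, and the D-type cyclin Ccnd2 in 54 (median 322 CPM). Among 21 genes that adult β cells keep off, 5 were read in at least 29 cells, the glucose-phosphorylating Hk1 and the growth factor receptor Pdgfra were at 0, and the lactate transporter Slc16a1 was read in 2 cells, never above 1.48 CPM. Ldha, lactate dehydrogenase, was read in 22 cells (highest 69.2 CPM). B2m, which pairs with MHC class I heavy chains, was read in 14 cells (highest 156 CPM), and 9 of the 18 genes of that list were read in at least 29. Of 14 glycolysis genes, 12 were read in at least 29 cells and 7 in all.

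Of 25 imprinted genes, 11 were read in all 57 cells. Meg3, the noncoding RNA of the Dlk1 locus, had 420, 1508 and 3804 CPM in the lowest, median and highest cell, and Peg3 had 486, 1085 and 3135 CPM. H19, a noncoding RNA expressed in many fetal tissues, was read in 11 cells (highest 34.1 CPM) and Peg10 in 4 (highest 94.9 CPM), while Phlda2 was at 0.

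Detection followed level. Over the table of 40824 genes, 20404 had a read in any cell, 8366 in at least 29 cells, 1463 in all 57, and 2799 in 1 cell only. Genes with a mean of 1 to 10 CPM were read in a median of 24.6% of cells, those of 10 to 100 CPM in 77.2%, and those of 100 to 1000 CPM in 100%. The 10 rows of highest mean CPM over the 57 cells took 18.0% to 47.8% of the gene reads of a cell (median 38.2%). A gene absent from some cells at a mean below 100 CPM is therefore not shown to be off in them at this depth.

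The share of Ins1 and Ins2 together was 2.39% of gene reads in the lowest cell, 24.9% in the median cell and 36.6% in the highest. Ins2 exceeded Ins1 per length in 55 of 57 cells: the ratio of their TPM was 0.0261, 3.20 and 25.6 in the lowest, median and highest cell. Because the coding parts of these genes are alike and the counting rule for reads that match both is not given in the sources used here, the ratio also depends on how such reads were assigned. A single cell of batch 3 held 352 CPM of Ins2 beside 23505 CPM of Ins1, 27257 CPM of Iapp, 2920 CPM of Npy and 2343 CPM of Pyy. At the other end a cell of batch 2 held 8761 CPM of Ins1, and by count the same 8761 CPM of Iapp, beside 128911 CPM of Ins2.

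**Figure D2:**
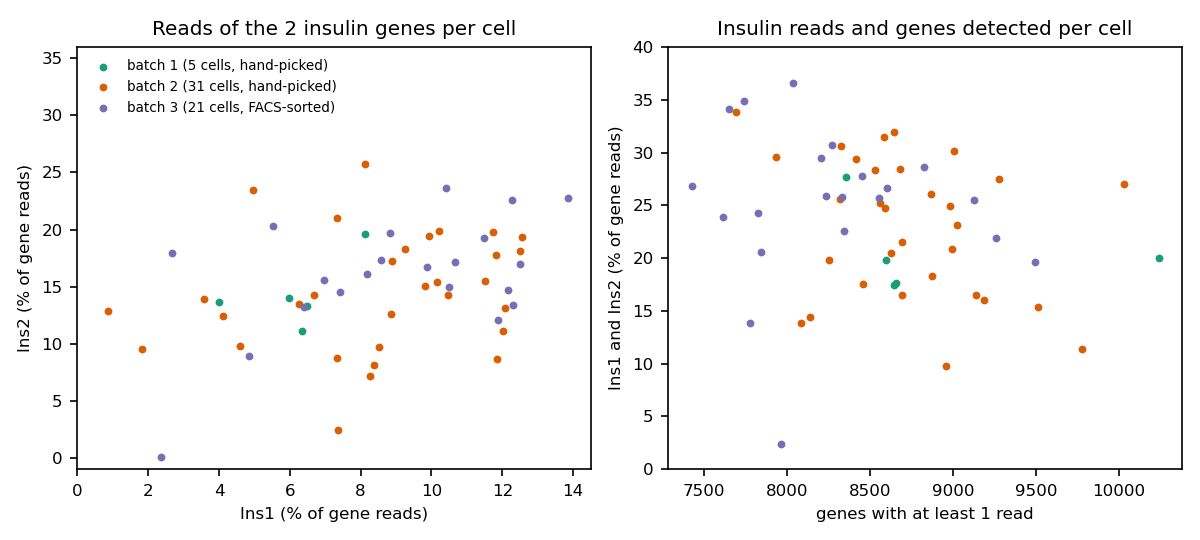
Each point is 1 of the 57 β cells at E17.5, coloured by batch. The left panel plots Ins2 against Ins1, both as % of gene reads; the right panel plots their sum against the number of genes with at least 1 read, and 1 cell of batch 3 lies at 2.39% while the median is 24.9%.

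Variation between cells was measured within batch 2 (31 cells) and batch 3 (21 cells) separately, as the squared coefficient of variation (CV) of CPM; batch 1, with 5 cells, was not used. Among 5673 genes with a mean of at least 20 CPM in both batches, the median CV was 0.790 in batch 2 and 0.815 in batch 3. ERCC spike-ins, synthetic RNAs added alike to each cell, served as the technical level: the log2 squared CV of genes exceeded that of spike-ins of like level by a median of 0.48 in batch 2 and 0.20 in batch 3, and 75.8% and 60.8% of genes lay above the spike-ins. Each gene was then set against a running median of 201 genes of like mean, and the distance above it is called its excess. The excess correlated across genes between the batches (Spearman's rho 0.47 over 5673 genes, which are not independent), and 192 genes were among the 10% of largest excess in both, which is 33.8% of each batch's 568 and 3.38% of all genes measured.

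The 15 genes of largest excess in both batches were Pyy, Npy, Slc38a5, Spp1, Prlr, Ccnd2, Lpl, Nr4a1, Cd24a, Arc, Dusp1, Dbpht2, Ier3, Ddc and G6pc2. Pyy had a CV of 3.19 in batch 2 and 2.24 in batch 3, and its levels in the lowest, median and highest cell were 0, 45.2 and 6228 CPM in batch 2 and 0.774, 25.1 and 2343 CPM in batch 3. A few cells thus held most of its reads: besides the highest cell, 4382 CPM was read in another cell of batch 2 and 4061 CPM in a cell of batch 1. Npy had a CV of 1.40 and 1.32, with 5 and 8 cells at 0 in batches 2 and 3 and its other cells spread up to 6876 and 5574 CPM. Slc38a5, an amino acid transporter known from α cells, had 0.796, 169 and 1875 CPM in the lowest, median and highest cell of batch 2 and 0, 194 and 4979 CPM in batch 3.

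Among the others, Spp1, osteopontin, was at 0 in 23 of 31 and 10 of 21 cells, with highest levels of 544 and 508 CPM. Cd24a, a surface protein of immature endocrine cells, was at 0 in 18 and 9 cells, with highest levels of 607 and 339 CPM. Prlr, the prolactin receptor, which supports β cell growth in pregnancy, had medians of 0.556 and 0.774 CPM and highest levels of 446 and 507 CPM. G6pc2 was read in every cell of both batches and ran over 79.5 to 3741 CPM in batch 2 and 187 to 3609 CPM in batch 3. Ddc, which makes dopamine and serotonin, reached 569 and 865 CPM, and the lipase Lpl 788 and 647 CPM. Among genes induced within minutes by stimuli or handling, Nr4a1 reached 1361 and 425 CPM, Arc 1263 and 556 CPM, Dusp1 1765 and 635 CPM and Ier3 432 and 288 CPM.

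Fetal and immature genes were frequent among the variable ones: 10 of the 15 measured were in the top 10% in both batches, among them Dlk1, Rbp4, Npy, Pyy, Nnat, Cd24a, Ttr, Slc38a5 and Btg2. Of the immediate early and heat shock genes 5 of 10 measured were (Jun, Junb, Ier2, Ier3 and Dusp1), of the α cell markers 4 of 4 (Ttr, Slc38a5 and Tmem27 among them), of the proliferation genes 3 of 4 (Mcm2, Rrm1 and Ccnd2), and of the glycolysis genes 0 of 10. Granule cargo gave 4 of 17 (Chga, Chgb, Ptprn and Resp18), and islet transcription factors 3 of 21 (Rfx3 and St18 among them). The same count over all measured genes was 192 of 5673. By excess, Ins1 and Ins2 were not among the most variable, though few genes come near their level. Against the spike-ins nearest in level, all of them lower, the log2 squared CV of Ins1 was higher by 4.05 in batch 2 and 3.98 in batch 3. For Ins2 these values were 3.92 and 3.63.

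**Figure D3:**
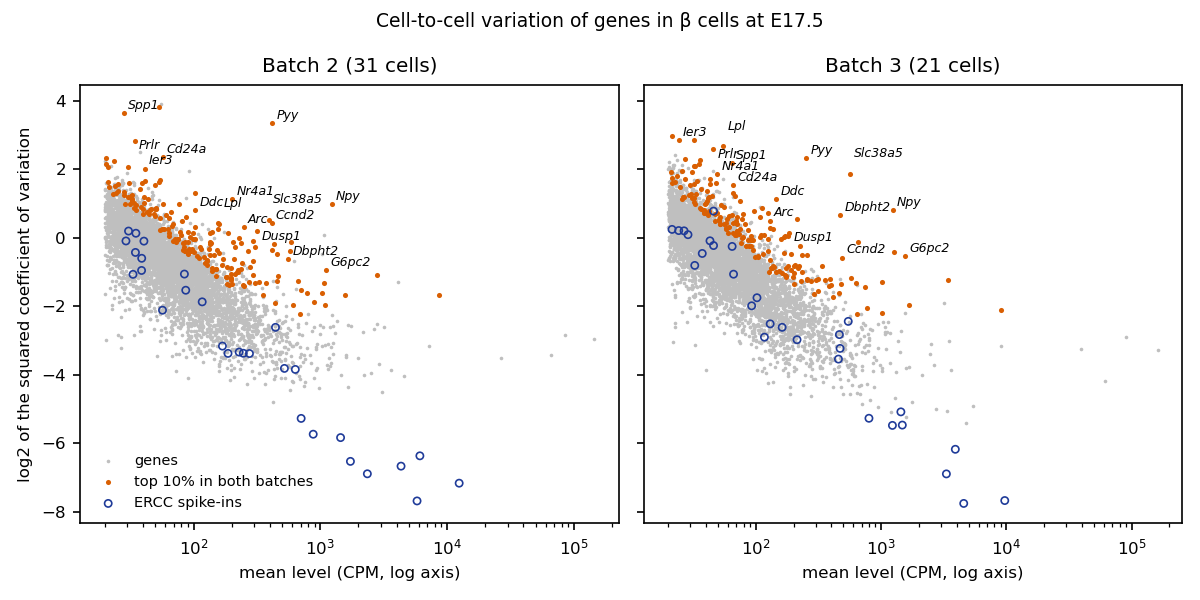
Each grey point is 1 of 5673 genes, with its mean level in CPM on a log axis against the log2 squared coefficient of variation over cells, in batch 2 on the left and batch 3 on the right. Orange marks the 192 genes in the top 10% of excess in both batches, blue rings are ERCC spike-ins, and the 15 named genes lie well above the running median of genes of like mean.

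Rank correlations between pairs of genes over the cells of a batch were weak for most pairs. These are descriptions over cells that share a batch, a total of reads and, for the insulin genes, a large part of that total. Ins1 and Ins2 had Spearman's rho of 0.26 over 31 cells in batch 2 and 0.29 over 21 cells in batch 3. Ins2 and Rbp4 ran opposite in both batches (rho −0.58 and −0.41), and Dlk1 and Rbp4 ran together (0.33 and 0.49). The chaperones Hspa5 and Hsp90b1 also ran together (0.63 and 0.38). Ins2 and Iapp had rho of 0.10 in batch 2 and 0.60 in batch 3, and Npy and Pyy had 0.12 and −0.09, so these pairs showed no common pattern in the batches.

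A few cells stood apart from the others. A cell of batch 3 held 7651 CPM summed over the proliferation genes, with 39 of 44 read, Mki67 at 135 CPM and Top2a, a topoisomerase of dividing cells, at 270 CPM. The same cell had 149662 CPM of Ins2, the median of the stage. The next highest cell by this sum held 2081 CPM of proliferation genes, with 17 of 44 read and both Mki67 and Top2a at 0. The sum also counts Ccnd2 and Spc25, so its order differs from that of Mki67 or Top2a. In batch 2, a cell held 56.5 CPM of Top2a and 8.47 CPM of Mki67, and another 33.9 CPM of Mki67 with Top2a at 0. A cell of batch 2 held the highest Gcg, 2078 CPM, beside 83737 CPM of Ins1 and 80994 CPM of Ins2, and the next highest Gcg was 188 CPM. By transcripts of the sex chromosomes at 10 CPM or more, 21 cells carried Xist alone, 31 carried Y-linked genes alone, 5 carried both and 0 neither. Batch 1 held 5 cells of the Y-linked kind alone, batch 2 held 6 with Xist alone, 20 with Y-linked genes alone and 5 with both, and batch 3 held 15 with Xist alone and 6 with Y-linked genes alone. The batches thus differed in the sex of their cells, and differences between them were not separated from it. No doublet caller was run.

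Compared with later β cells, cells at E17.5 carried more genes, less insulin mRNA and fewer gene reads per spike-in read. At an equal depth of 500000 gene reads, the batch medians were 8000, 7973 and 7493 genes per cell at E17.5, against 6628, 7026 and 7600 in the lowest, median and highest of 22 later batches. The mean difference was 746 genes (two-sided exact permutation test over 2300 assignments, p = 0.00261, adjusted over 3 quantities 0.00391); the groups overlapped only through batch 3. Ins1 and Ins2 took 19.8%, 24.7% and 25.8% of gene reads at E17.5, against 26.9%, 45.6% and 51.1% in the lowest, median and highest later batch. These groups did not overlap, and the mean difference was −19.7 percentage points (exact permutation p = 0.000870, adjusted 0.00261). Since insulin reads take a share of a fixed total, the number of genes read at a fixed depth and the insulin share are not independent. The later batches span 6 stages, so the spread in all 3 permutation tests includes differences between stages. At P0, the nearest stage, batches had 7340 to 7443 genes per cell and 26.9% to 35.7% insulin reads.

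Gene reads per spike-in read, a measure of how much mRNA a cell gave, were 32.7, 25.1 and 32.1 at E17.5, against 29.7, 44.7 and 76.1 in the lowest, median and highest later batch. The mean difference was −17.2 (exact permutation p = 0.00696, adjusted 0.00696), and the groups overlapped. It was −14.8 without batch 2 (exact permutation p = 0.0580). Within collection methods, the later hand-picked batches had 6628 to 7600 genes (median 6990) and 26.9% to 50.0% insulin reads, and the later sorted batches 6664 to 7534 genes (median 7177) and 33.5% to 51.1%. Against its own method, each E17.5 batch was below every later batch for insulin share. For genes, both hand-picked batches were above every hand-picked later batch, while the sorted batch, at 7493, fell within the later sorted range.

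**Figure D4:**
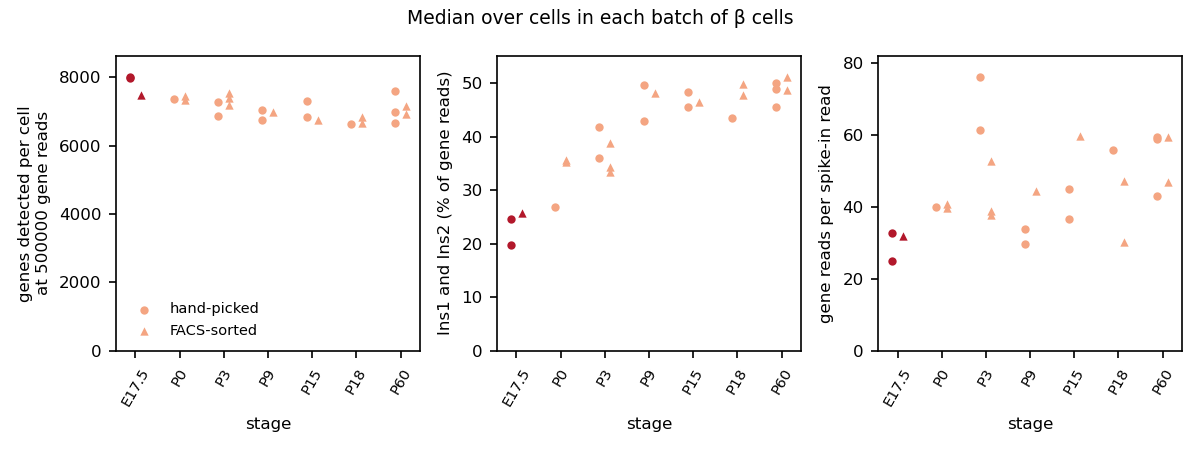
Each point is a β cell batch (median over its cells), by stage, with hand-picked batches as circles and FACS-sorted ones as triangles; E17.5 is dark red. The panels give genes detected at 500000 gene reads, Ins1 and Ins2 as % of gene reads, and gene reads per spike-in read; insulin is 19.8% to 25.8% at E17.5, below all later batches.

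Gene by gene, batch sums at E17.5 were compared with the mean of the 6 later stages (edgeR quasi-likelihood, 18537 genes tested, adjusted p under 0.05), with levels as TMM-scaled CPM per batch. Of these, 845 genes (4.56%) were higher at E17.5 and 360 (1.94%) lower. The median log2 change over all genes tested was 0.03. Fitted log2 changes are against the mean of the stages on the log scale, so they exceed the ratio of mean levels where a gene is near 0 in late stages.

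Of the 25 fetal and immature genes, 15 were higher and none lower, with a median log2 change of 2.73. The list was drawn up with such results known. Dlk1 had 496, 516 and 465 CPM at E17.5, against 0, 6.17 and 223 CPM in the lowest, median and highest later batch (log2 change 5.75 ± 0.41 SE, adjusted p = 1.21e-12). Rbp4 had 1038, 827 and 982 CPM, against 0.523, 25.1 and 462 CPM (4.58 ± 0.38, adjusted p = 9.17e-11). For both genes every batch at E17.5 lay above every later batch. Nnat had 9334, 6672 and 7631 CPM at E17.5, against 10.0, 343 and 3200 CPM (4.77 ± 0.41, adjusted p = 1.59e-10), again without overlap. Also higher were Slc38a5, Npy, Cd24a, Fev, Pax4, Sox11, Gal and Gip, and the fetal RNA-binding proteins Igf2bp1, Igf2bp2 and Igf2bp3. Pax4, Sox11 and Gal were read in 6, 8 and 16 of the 57 cells, so their batch sums rest on few cells.

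By stage the levels of both genes were highest at E17.5 and next highest at P0. From E17.5 through the 6 later stages in order of age, median batch levels of Dlk1 were 496, 199, 26.9, 9.65, 1.80, 2.98 and 0.0878 CPM. For Rbp4 the medians were 982, 363, 129, 57.3, 5.23, 11.8 and 8.40 CPM over the same stages. Ucn3 had medians of 65.3, 54.8, 384, 497, 725, 936 and 732 CPM.

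The largest fitted rises that met the naming rule, beside Dlk1, Rbp4 and Nnat, were Cacna1h, Slc38a1, Crhr2, Higd1a and Marcksl1. Cacna1h, a T-type calcium channel, had 17.2, 28.8 and 34.2 CPM at E17.5, against at most 5.86 CPM later. Crhr2, a receptor for urocortins such as Ucn3, had 44.1, 59.9 and 47.0 CPM, against at most 30.3 CPM. Slc38a1, a glutamine transporter, had 18.2, 20.7 and 25.1 CPM, against at most 10.7 CPM. The rule takes only genes without overlap, so all 5 lay above every later batch by selection.

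Hormone genes of other islet and gut cells gave 5 higher of 13 tested (Npy, Tac1, Cck, Gal and Gip) and none lower. Of the disallowed genes 3 of 19 were higher, Oat, Cxcl12 and Mgst1. Mgst1, a glutathione transferase, had 4.87, 39.2 and 24.9 CPM at E17.5, against at most 14.7 CPM later. Cck and Cxcl12 were low and overlapped with P0. Cck had 0.475, 0.404 and 3.14 CPM at E17.5 and up to 1.69 CPM at P0. Cxcl12 had 0.119, 0.263 and 3.01 CPM at E17.5 and up to 2.14 CPM at P0. Of 25 imprinted genes 10 were higher and 2 lower (median 0.89). Gnas, the stimulatory G protein gene, had 225, 220 and 168 CPM at E17.5, against 7.48, 23.6 and 125 CPM in the lowest, median and highest later batch (2.90 ± 0.18, adjusted p = 8.12e-14). Grb10, a growth factor adaptor, had 186, 189 and 108 CPM, against 2.15, 16.2 and 93.1 CPM. Both lay above all later batches; the Gnas locus holds overlapping transcripts, so its count is uncertain.

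Folding genes of the endoplasmic reticulum gave 9 higher and 1 lower of 21 (median 0.63). Hsp90b1 had 1712, 1718 and 2093 CPM at E17.5, against 618, 865 and 1689 CPM (1.04 ± 0.14, adjusted p = 1.44e-06), and Pdia4, a disulphide isomerase, had 716, 810 and 943 CPM, against 212, 286 and 625 CPM (1.34 ± 0.16, adjusted p = 5e-07). Hspa5, Calr, Pdia3, Pdia6, Manf, Creld2 and Sdf2l1 were also higher, and Atf4, a stress transcription factor, was lower. Of 30 islet transcription factors 4 were higher (Rfx3, Myt1 and Pax6 among them, median 0.28), and of 14 glycolysis genes 5 were higher, with Pfkl and Eno1 leading, and 2 lower. Immediate early genes gave 2 higher of 14, Ier3 and Atf3; the call for Ier3 was lost without any 1 of the 3 batches, and that for Atf3 without batch 2.

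Of 18 granule cargo genes, none was higher and 8 were lower (median −0.76). Chga had 2038, 2296 and 2876 CPM at E17.5, against 3812, 10750 and 13552 CPM in the lowest, median and highest later batch (−2.03 ± 0.18, adjusted p = 3.76e-10). Resp18, a granule protein, had 14.4, 47.9 and 44.5 CPM, against 46.5, 461 and 842 CPM (−3.26 ± 0.30, adjusted p = 6.47e-10). Pcsk1n, Scg2, Scg5, Pam, Slc30a8 and Pcsk2 were also lower. Of 20 glucose sensing genes 6 were lower and 1 was higher (median −0.51). Ucn3 had 34.6, 65.3 and 76.1 CPM at E17.5, against 45.7, 579 and 1115 CPM (−2.88 ± 0.63, adjusted p = 0.00366), overlapping with P0 alone. G6pc2 had 909, 878 and 1364 CPM, against 947, 3383 and 6876 CPM (−1.62 ± 0.51, adjusted p = 0.0467). The insulin genes themselves missed the threshold: Ins1 had 46851, 65624 and 76931 CPM, against 82333, 188351 and 245777 CPM (−1.41 ± 0.50, adjusted p = 0.0846), and Ins2 had a log2 change of −1.35 ± 0.71 (adjusted p = 0.324).

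The largest falls that met the naming rule were Akr1c14, Mt1, Adh1, Sdc4, Nell1, Spc25, Prlr and Tacc2. Akr1c14, a steroid-reducing enzyme, had 0.119, 0.687 and 0.285 CPM at E17.5, against 6.61, 65.6 and 152 CPM in the lowest, median and highest later batch (−6.94 ± 0.63, adjusted p = 3.68e-09). Mt1, metallothionein, had 2.97, 10.3 and 6.82 CPM, against 11.1, 221 and 766 CPM. Prlr had 36.7, 23.4 and 41.4 CPM, against 61.3, 295 and 664 CPM (−3.03 ± 0.88, adjusted p = 0.0296), a call lost without any 1 of the 3 batches. Spc25, a kinetochore gene on chromosome 2 at 69193895 to 69206194, next to G6pc2 at 69211073 to 69227841 on the other strand, had 7.59, 12.8 and 84.2 CPM, against 111, 285 and 688 CPM. Of the 44 proliferation genes none was higher and 4 were lower (Cenpe, Spc25, Ccnd1 and Ccnd2, median −1.53), and Mki67 was not called (−2.41, adjusted p = 0.363). Among 18 antigen presentation and interferon genes 4 were lower, B2m, H2-K1, H2-D1 and Psmb8.

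Markers of other cell types moved with this comparison. Of 10 α cell markers, 6 were higher and 1 lower; Slc38a5 was among the higher ones, and so were Irx1, Irx2 and Pou3f4, which were under 1 CPM on average at E17.5, and Irx1 and Irx2 had reads in 2 cells each. Their summed level per cell was 744 to 7534 CPM (median 1901) at E17.5, against 159 to 5378 CPM (median 1062) in later β cells. The duct marker Sox9, a factor of fetal progenitors, had 2.61, 90.5 and 42.7 CPM, against at most 12.9 CPM later, and the complement gene C1qa 76.1, 65.0 and 59.6 CPM, against at most 44.0 CPM. Xist was also higher (5.36 ± 0.86, adjusted p = 6.11e-05), with 0.119, 84.8 and 143 CPM at E17.5, against 0 to 138 CPM. The part of these markers and of sex in the result was not tested. The number of higher genes was 462, 468 and 486 without batch 1, 2 and 3 of E17.5, and that of lower genes 151, 232 and 226. Hand-picked batches alone gave 454 higher and 172 lower genes, and sorted batches alone, with 1 batch at E17.5, gave 118 and 36.

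**Figure D5:**
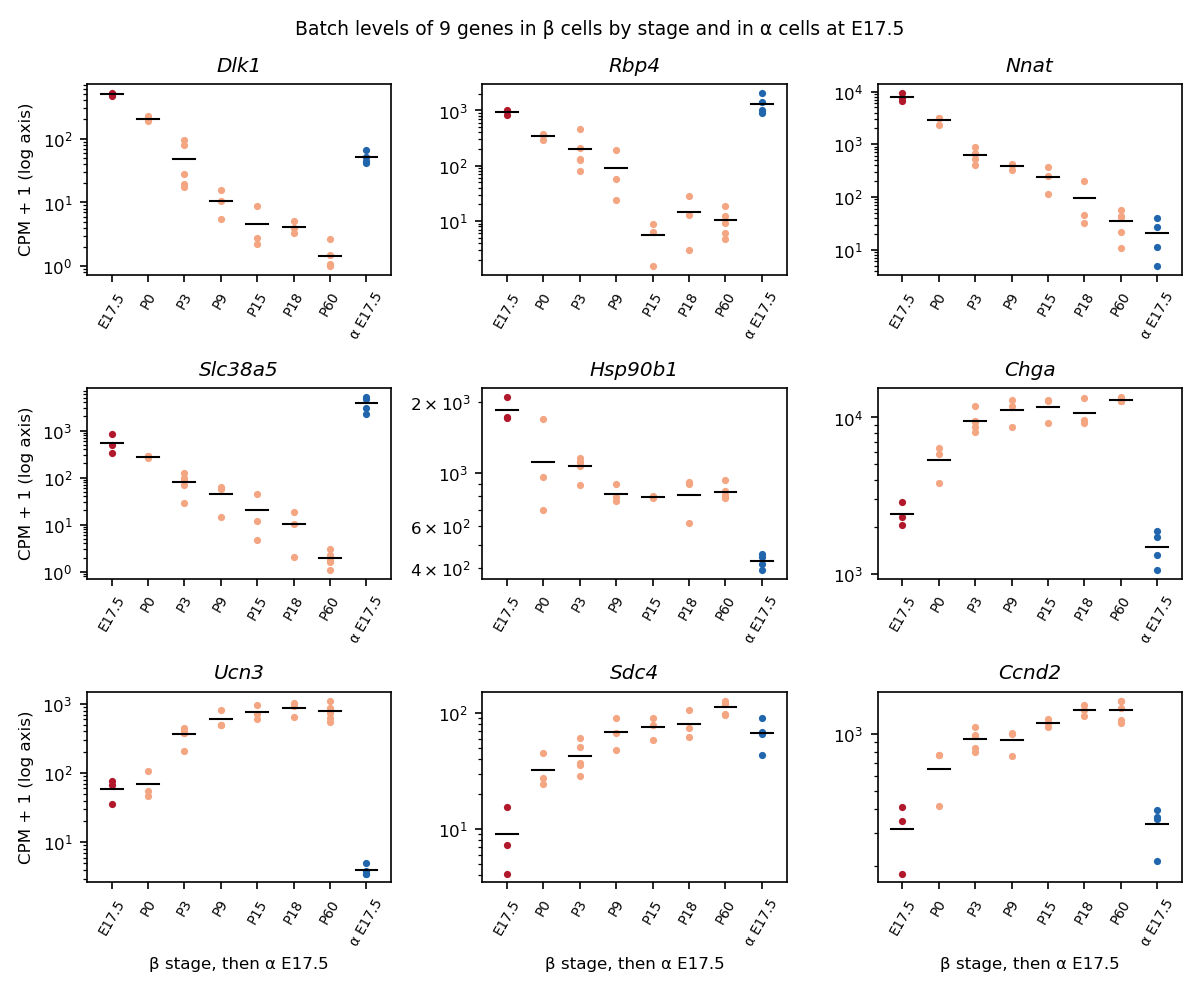
Points are batches and bars their means, as TMM-scaled CPM + 1 on a log axis, for β cells by stage and, at the right, α cells at E17.5. Dlk1, Rbp4, Nnat, Slc38a5 and Hsp90b1 are highest at E17.5 among β stages; the mean of Chga, Ucn3, Sdc4 and Ccnd2 is lowest at E17.5.

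Against P0 alone, the nearest stage, 2 genes (0.0108%) were higher and 13 (0.0701%) lower of 18537 tested, while 1352 had an unadjusted p under 0.05 (edgeR). The median log2 change over all genes was −0.02. The 2 higher genes were Fam174b and Synj2bp, a mitochondrial membrane protein. Fam174b had 308, 290 and 272 CPM at E17.5, against 105, 155 and 158 CPM at P0 (1.11 ± 0.23, adjusted p = 0.0387). Lower genes included Insig1, a brake on cholesterol synthesis, with 13.8, 39.9 and 21.7 CPM at E17.5, against 100, 116 and 133 CPM at P0 (−2.29 ± 0.37, adjusted p = 0.00195). Ivd, an enzyme of leucine breakdown, had 50.7, 104 and 61.5 CPM, against 220, 302 and 322 CPM (adjusted p = 0.00322). Chga had 2038, 2296 and 2876 CPM, against 3812, 5816 and 6334 CPM (−1.14 ± 0.21, adjusted p = 0.00625). Sdc4, a syndecan of the cell surface, Il6ra, an interleukin receptor, Rnase4, Jmjd1c and Lamp2, a lysosomal membrane protein, were the other falls named by the rule. The naming rule required no overlap between the 3 E17.5 and the 3 P0 batches, so its absence in these genes is no further finding.

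Among the lists, Chga was the single call against P0. Dlk1 had 496, 516 and 465 CPM at E17.5, against 189, 199 and 223 CPM at P0, and did not overlap, but its change missed the threshold (adjusted p = 0.76). Rbp4 (1.43 ± 0.67, adjusted p = 0.656) and Nnat (1.37 ± 0.72, adjusted p = 0.714) were alike in this. The 44 proliferation genes had a median log2 change of −3.28 with 25 at an unadjusted p under 0.05 but none called; Mki67 had 0, 1.15 and 5.39 CPM, against 23.0, 43.7 and 193 CPM at P0. The counts rest on few batches: higher genes numbered 0, 0 and 4 without batch 1, 2 and 3 of E17.5, and 7, 0 and 0 without batch 1, 2 and 4 of P0. Lower genes numbered 3 without E17.5 batch 1. Sorted batches alone, with 1 batch at E17.5, gave 0 higher and 0 lower genes. Hand-picked batches alone, with 1 batch of 9 cells at P0, gave 36 higher. In such fits the single batch is assumed to vary like those of the other groups. Each of the 10 genes named by the rule lost its call in at least 1 alternative.

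Against α cells of the same stage, 938 genes (5.06%) were higher and 602 (3.25%) lower of 18537 tested, with a median log2 change of −0.06 over all genes. The cells were chosen by the reporters of Ins1 and Gcg, so these hormones check the labels and are no finding. β and α cells also came from different reporter lines and backgrounds, so cell type and line cannot be told apart. Ins1 had 46851, 65624 and 76931 CPM in β cells, against 85.3 to 328 CPM in 4 α batches, and Gcg had 0.475, 61.7 and 1.65 CPM in β cells, against 65315 to 89199 CPM. Of the 12 β markers 11 were higher and of the 10 α markers 8 lower; Rbp4 was not called (−0.53 ± 0.62, adjusted p = 0.707), with 1038, 827 and 982 CPM in β cells, against 892, 1196 and 2055 CPM in the lowest, median and highest α batch. Dlk1 was higher (3.24 ± 0.68, adjusted p = 0.00121), with 40.7 to 64.4 CPM in α cells, and so was Nnat (8.52 ± 0.86, adjusted p = 3.04e-09), with 3.85 to 38.3 CPM in α cells.

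Folding genes set β cells most broadly apart: 20 of 21 were higher and none lower, with a median log2 change of 2.21. Pdia3 had 2114, 2063 and 2202 CPM in β cells, against 420 to 554 CPM in α cells (adjusted p = 1.06e-12). P4hb, the catalytic disulphide isomerase, had 1327, 1244 and 1347 CPM, against 201 to 341 CPM (2.23 ± 0.14, adjusted p = 9.67e-14). Hspa5 had 2684, 3199 and 2909 CPM, against 300 to 614 CPM (2.64 ± 0.23, adjusted p = 2.02e-10). No batch of either type overlapped for these 3 genes.

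Glucose sensing genes followed, with 12 of 20 higher and 1 lower (Cacna1c), and a median of 2.39. Slc2a2 had 545, 594 and 474 CPM in β cells, against 0 to 4.35 CPM in α cells (8.02 ± 1.10, adjusted p = 2.3e-06). Sytl4, a granule docking protein, had 787, 801 and 663 CPM, against 0 to 7.28 CPM, and Ero1lb, the endoplasmic oxidase of β cells, had 763, 983 and 773 CPM, against 28.0 to 45.9 CPM. Pcsk1, a convertase for proinsulin, had 618, 720 and 609 CPM, against 2.91 to 45.8 CPM, whereas Pcsk2, which also processes proglucagon, was not called (−0.37 ± 0.14, adjusted p = 0.1). Cargo genes gave 9 higher and 4 lower of 18 (median 0.67).

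Transcription factors split, with 9 higher and 3 lower of 30. Nkx6-1 had 104, 179 and 129 CPM in β cells, against 9.45 to 21.5 CPM in α cells (3.19 ± 0.35, adjusted p = 1.98e-08). Pdx1 had 265, 279 and 238 CPM, against 5.06 to 17.7 CPM. Mlxipl, the glucose-responsive factor ChREBP, had 426, 462 and 553 CPM, against 13.0 to 29.8 CPM. Mnx1 had 25.6, 22.7 and 3.39 CPM in β cells and 0 reads in α cells. Lower in β cells were Etv1, with 0, 1.19 and 4.60 CPM, against 382 to 409 CPM in α cells, Prox1 and Isl1.

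The largest rises by the naming rule were Adra2a, Sez6l, Mcoln3, Msln, Slc38a1, Syndig1l, C2cd4a and Ins2. Adra2a, the adrenergic receptor that inhibits insulin release, had 96.5, 72.0 and 40.9 CPM in β cells and 0 reads in α cells. Sez6l had 52.0, 72.2 and 43.3 CPM, Msln, mesothelin, 22.2, 37.5 and 23.8 CPM, and Mcoln3 41.8, 30.5 and 21.7 CPM, each with 0 reads in α cells. C2cd4a had 94.1, 71.1 and 78.8 CPM, against 0 to 0.323 CPM. Slc38a1 and Syndig1l had 1 and 3 reads in α cells.

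Beside Gcg, the largest falls were Mctp2, Fbp1, Serpina1a, Serpina1d, Fam46d, Sorcs1 and Hs3st1, each with 0 reads in the 57 β cells. In the α batches Fbp1, a gluconeogenic enzyme, had 27.9 to 76.6 CPM, Mctp2 29.9 to 66.4 CPM and Fam46d 25.0 to 45.7 CPM. Hs3st1, a heparan sulfate sulfotransferase, had 9.25 to 31.6 CPM there and the sorting receptor Sorcs1 13.3 to 40.8 CPM. The protease inhibitors Serpina1a, at 14.0 to 39.5 CPM, and Serpina1d, at 31.3 to 78.1 CPM, are near-identical copies, so reads may be split between them. Among imprinted genes, 5 of 25 were higher and 6 lower: Peg10 had 0, 3.90 and 0 CPM in β cells, against 273 to 397 CPM in α cells, and Sgce, its neighbour, had 1 read in β cells, against 58.8 to 87.6 CPM in α cells.

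Other hormone genes gave 1 higher, Npy, and 5 lower, Gcg, Ghrl, Ppy, Gast and Pyy, of 13 tested; the log2 change of Ghrl was −6.95 but 3.79 within hand-picked batches. Npy had 422, 990 and 1042 CPM in β cells, against 0 to 10.6 CPM in α cells, without overlap (7.70 ± 1.80, adjusted p = 0.00436). Pyy had 584, 321 and 179 CPM, against 2818 to 5151 CPM (−3.67 ± 1.16, adjusted p = 0.041); the calls for Pyy and Ppy were each lost without any 1 β batch. None of the 44 proliferation genes was higher and 6 were lower (median −2.96). Of the α batches 3 were sorted (30, 21 and 8 cells) and 1 was picked (6 cells), so each method holds few batches of each type. The fibroblast collagen Col1a2 had 0, 1.62 and 0.0952 CPM in β cells, against 42.5 to 106 CPM in α cells, and the summed mesenchymal markers per cell were 0 to 146 CPM (median 0) in β cells, against 0 to 1503 CPM (median 47.3) in α cells. Their part in the result was not tested. The number of lower genes was 327 without β batch 1. Hand-picked batches alone, with 1 α batch, gave 566 higher and 236 lower genes, and sorted batches alone, with 1 β batch, 389 and 137.

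Bulk RNA sequencing of sorted Ins1-RFP+ β cells at E17.5, made with a poly(A) strand-specific kit, gave 2 libraries of 15762785 and 12975989 gene reads. Summed over the 57 cells, levels of 12132 genes at 1 CPM or more in both correlated with the bulk mean at a Spearman's rho of 0.83 across genes, and the bulk libraries with each other at 0.99. Ins2 had 149537 ± 9819 CPM in the cells (mean and SD of 3 batches), against 48957 and 51951 CPM in bulk. In bulk, more cells of a type and more RNA per cell cannot be told apart. Gcg was at 1875 and 664 CPM in bulk and Sst at 1521 and 668 CPM, against cell medians of 0.670 and 1.69 CPM. These are unlike measures, since a bulk value averages over cells and a median leaves out the weight of a few high cells. The 57 cells also exclude those labelled with a second hormone, in which Gcg reached 95654 CPM and Sst 79515 CPM. The part of this selection in the difference was not tested. Of 7463 genes at 20 CPM or more in bulk, 4 had 0 reads in the cells: the pancreatic proteases Cela2a (336 and 70.1 CPM in bulk) and Cela3b (184 and 52.8 CPM), and the predicted genes Gm10260 and Gm24187.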

How the data were processed

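Single-cell values were read counts per gene, deposited by the authors as a table of 40824 gene rows and 92 ERCC rows, and TPM, deposited by the authors for the same cells. Bulk values were read counts of 2 libraries, deposited by the authors. TopHat2 2.1.0, HTSeq 0.6.0 and DESeq 1.20.0 with builds GRCm38 and mm10 are named per the submitters' processing notes; the strand setting, the treatment of reads that match several genes and the role of each tool are not given in the sources used here. Groups were taken from the labels, and no 2 cell columns were identical.

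Counts were summed over the cells of each labelled batch (45 batches, 866 cells) and fitted with edgeR 4.0.16 (R 4.3.3; TMM scaling, filterByExpr, quasi-likelihood test, common dispersion 0.6484) with group and collection method as terms. A call is a Benjamini-Hochberg adjusted p under 0.05 over 18537 genes. Batch medians were compared by two-sided exact permutation, adjusted over 3 quantities. For gene counts, cells were thinned to 500000 gene reads, which all cells reached. DESeq2 1.42.0, limma 3.58.1 on log2(CPM + 1), other filters and scalings, a replicate block, each collection method alone, the second-hormone cells added and each batch left out were alternatives. Tables and plots used Python 3.11.15, numpy 2.4.6, pandas 2.3.3, scipy 1.17.1 and matplotlib 3.10.9. The fit and the variation measure were tested on simulated data.

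For each comparison the text names the 8 called genes that rose most and the 8 that fell most, where batches did not overlap and the group with more reads averaged 20 CPM or above. It also names the 20 of highest mean CPM, the 15 of largest variation in both batches and called members of the gene lists. Predicted, ribosomal and mitochondrial genes were skipped. The members and the lists were chosen with earlier results of these data known. Some members of the lists are not reported here by name.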

Additional observations from a re-analysis of the deposited data

Results flagged for a closer look

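In 4 of 30 groups of batches tested, all of them the 4 α batches at E17.5, 1 batch lay far from the others. Slc38a1 was at 0.0675 CPM in α batch 3 and 0 in the others, and Syndig1l at 0.0961 CPM in α batch 2 and 0 in the others. C2cd4a was at 0.323 CPM in α batch 1 and 0 in the others. These levels compare with 18.2 CPM or more in every β batch at E17.5 for these 3 genes. In these 3 genes the other α batches had 0 reads, so reads in 1 batch alone set it apart at any level. Otherwise chance flags about 1 in 20 groups. Neurog3 was at 2.82 CPM in α batch 2 and 0 to 0.474 CPM in the others.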

How the results depend on the processing

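Against later β cells, the 845 higher genes became 559 with the batch number as a replicate block, 454 in hand-picked batches, 118 in FACS-sorted batches and 3839 with limma on log2(CPM + 1), and 462 to 847 with 1 batch left out. The 360 lower genes became 172 in hand-picked batches, 36 in sorted batches and 717 with DESeq2, and 151 to 379 with 1 batch left out. Under limma the median change of all genes was 0.19, against 0.03 with edgeR. Against P0, the 2 higher genes became 1 without the collection method term, 1 with the replicate block, 36 in hand-picked batches, 0 in sorted batches, 0 with the second-hormone cells, 165 with limma and 60 with DESeq2, and 0 to 7 with 1 batch left out. The 13 lower genes became 0 in sorted batches, 65 with limma and 126 with DESeq2, and 3 to 18 with 1 batch left out. Against α cells, the 938 higher genes became 566 in hand-picked and 389 in sorted batches (708 to 882 with 1 batch left out). The 602 lower genes became 236 in hand-picked batches, 137 in sorted batches, 2533 with limma and 1172 with DESeq2 (327 to 514 with 1 batch left out). The single-method counts rest on fewer batches; the cause of the other changes was not tested.

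The difference in gene reads per spike-in read was −20.2 in hand-picked batches (exact permutation p = 0.0513) and −18.6 to −14.8 with 1 β E17.5 batch left out, the smaller without batch 2 (exact permutation p = 0.0580). Genes variable in both batches numbered 97 at the top 5% and 115 at a mean of at least 50 CPM, against 192. The median number of genes per cell was 6468 at 10 reads or more, against 8582. Among named genes, Ghrl against α cells reversed in hand-picked batches, to 3.79 on the log2 scale (edgeR adjusted p = 0.651). Calls held in every alternative for 22 of 38 named genes against later β cells, 0 of 10 against P0 and 24 of 45 against α cells. Deviations of same-numbered batches of E17.5 and P0 correlated at −0.031 and 0.002, and those with different numbers at −0.064 to 0.092. Same-numbered β and α batches of E17.5 correlated at 0.007, −0.039 and 0.057. These few values do not settle whether the numbers pair the batches. Depth limits detection in single cells: 0 of 57 cells allows a share of up to 5.26% of cells with a read, for counting error only.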
